A study of Mus musculus with 4 samples.

Results

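The first glutamatergic neurons of the cerebral cortex were 417 of 3634 kept cells of the dorsal cortex library (CTX), or 11.5% (exact Clopper-Pearson 95% interval 10.5–12.6), and 417 of 16544 kept cells of the whole series. A cell was a member when it held at least 2 UMIs (unique molecular identifiers, each standing for 1 captured RNA molecule) of Neurod6, a Dcx level above 1.5 on the scale ln(1 + UMIs per 10000 UMIs of the cell), and at most 1 UMI of Eomes. The kept cells had over 1500 and under 4500 genes detected, under 5% mitochondrial UMIs and under 1% UMIs of Hbb genes. Neurod6 marks postmitotic neurons of the cortical excitatory lineage, Dcx marks young migrating neurons, and Eomes (Tbr2) marks the intermediate progenitors that divide to give such neurons. The members were thus chosen by these measured values, so their levels of Neurod6, Dcx and Eomes are no result, and what follows describes the cells without a test. The members held 3809522 UMIs, with a median of 8804 per cell against 8201 in the other CTX cells.

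The study dissected the cortex and 3 ganglionic eminences, the lateral one (LGE), the medial one (MGE) and the caudal one (CGE), from wild-type mouse embryos at E12.5, an embryonic day when cortical neurogenesis has just begun, with tissue pooled over embryos. Each region gave 1 droplet library (10x Genomics) of 31451467 to 49794765 UMIs. The labels describe a sort for live nucleated cells and the methods describe wild-type cells as unsorted, which was not settled here. Members were compared with the other 3217 kept CTX cells and with high-Dcx cells, past the same Dcx limit, of LGE (2198 cells), MGE (2272) and CGE (2330). With 1 library per region, a difference between regions and a difference between libraries cannot be told apart, and cells of 1 library are not replicates, so no p-value is given. Intervals in square brackets are exact 95% intervals, Poisson for levels and conditional binomial for ratios, and cover counting error only.

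The cerebral cortex builds its excitatory neurons from radial glia that line the ventricle, either directly or through intermediate progenitors, in a sequence of basic helix-loop-helix factors that runs from Neurog2 through Neurod1 to Neurod2 and Neurod6. The earliest such neurons form the preplate and then the subplate and the deep layers, whose cells send axons to the thalamus, the brainstem and the spinal cord. Tbr1, Sox5, Fezf2 and Bcl11b (Ctip2) are known for assigning these deep-layer projection fates, and the vesicular transporters Slc17a6 (VGLUT2) and Slc17a7 (VGLUT1) load glutamate into synaptic vesicles. The eminences instead make GABAergic neurons under Dlx factors.

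Because Neurog and Neurod proteins bind E-boxes, the start-site windows of the 4 marker genes outside the gate were searched for 3 E-box forms on both strands. The first form was CAGATG, which reads as CATCTG on the reverse strand. The second form was CATATG and the last was CAGCTG, and each of these reads the same on either strand. Each window is from RefSeq on GRCm38.p6 and runs from 250 bases before to 50 bases after an annotated start, read 5′ to 3′ along the gene, with matches to these forms in capitals. The windows are Neurod2 at chr11:98329596-98329895 (minus strand), Slc17a6 at chr7:51624387-51624686 (plus strand, the second of 2 annotated starts), Tbr1 at chr2:61804203-61804502 (plus strand) and Fezf2 at chr14:12345816-12346115 (minus strand).
Neurod2: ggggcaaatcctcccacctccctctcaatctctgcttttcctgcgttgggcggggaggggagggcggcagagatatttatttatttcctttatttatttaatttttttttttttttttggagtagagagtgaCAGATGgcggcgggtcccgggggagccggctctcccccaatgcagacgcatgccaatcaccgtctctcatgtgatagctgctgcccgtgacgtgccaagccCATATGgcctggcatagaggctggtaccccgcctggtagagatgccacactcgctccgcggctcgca
Slc17a6: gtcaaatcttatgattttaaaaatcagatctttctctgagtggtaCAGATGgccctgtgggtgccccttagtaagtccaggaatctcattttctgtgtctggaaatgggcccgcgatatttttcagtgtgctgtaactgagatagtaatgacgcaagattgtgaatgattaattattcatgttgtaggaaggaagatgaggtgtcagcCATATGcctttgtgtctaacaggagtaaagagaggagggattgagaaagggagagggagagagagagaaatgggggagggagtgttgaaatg
Tbr1: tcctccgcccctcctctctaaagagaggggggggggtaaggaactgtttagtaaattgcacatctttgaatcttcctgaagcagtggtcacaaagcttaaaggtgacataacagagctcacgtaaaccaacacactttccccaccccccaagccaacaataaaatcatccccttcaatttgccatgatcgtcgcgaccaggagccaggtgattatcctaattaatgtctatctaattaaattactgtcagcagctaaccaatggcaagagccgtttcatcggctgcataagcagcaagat
Fezf2: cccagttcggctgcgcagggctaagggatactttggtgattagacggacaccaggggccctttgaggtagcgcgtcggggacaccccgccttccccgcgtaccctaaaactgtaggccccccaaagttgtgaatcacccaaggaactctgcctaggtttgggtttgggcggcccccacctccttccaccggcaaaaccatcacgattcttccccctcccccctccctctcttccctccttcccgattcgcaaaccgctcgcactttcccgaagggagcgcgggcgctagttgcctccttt
The Neurod2 window held CAGATG 118 bases and CATATG 17 bases before the start. The Slc17a6 window held the same pair of forms, at 205 and 42 bases before its start, and the windows of Tbr1 and Fezf2 held none of the 3 forms. The window of the first annotated Slc17a6 start, chr7:51621580-51621879, which is not shown, also held none. Of 32851 RefSeq windows of this kind, 17.2% held CAGATG, 3.91% CATATG, 16.3% CAGCTG and 33.4% any of them. A match describes letters and not a bound site, and the start used in these cells was not measured. In GENCODE M21 on GRCm38 these genes lie on chromosome 11 from 98325415 to 98329648 (Neurod2), chromosome 7 from 51622006 to 51671119 (Slc17a6, which overlaps Gm45072), chromosome 2 from 61802930 to 61814114 (Tbr1) and chromosome 14 from 12342094 to 12348189 (Fezf2).

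The label was checked against Neurod2, Tbr1, Slc17a6 and Fezf2, in counts-per-million (CPM, the UMIs of a gene scaled to all UMIs summed over the cells of a group). A gene was called higher or lower where CPM differed at least 2-fold with the interval of the ratio beyond 1, among genes with a mean of at least 10 CPM over the pair of groups. Against the other CTX cells 954 of 8718 genes were called higher (10.94%) and 1093 lower (12.54%). Against high-Dcx cells the shares higher and lower were 7.73% and 8.05% of 8551 genes for LGE, 8.46% and 7.64% of 8508 for MGE, and 6.24% and 7.18% of 8525 for CGE. Genes higher than in all 3 high-Dcx groups numbered 377 of 8218 (4.59%), and genes lower than in all 3 numbered 298 (3.63%). The median log2 ratio over all tested genes lay between -0.07 and -0.03 in the 4 comparisons.

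Neurod2, a helix-loop-helix factor of differentiating cortical neurons, stood at 852 CPM [823–882] in the members, 214 in the other CTX cells, 13.3 in LGE, 0.0653 (1 UMI) in MGE and 22.5 in CGE high-Dcx cells. Tbr1, the T-box factor of the earliest cortical neurons, stood at 386 CPM [367–406] in the members against 77.0, 7.36, 0.196 (3 UMIs) and 19.5 in the same order. Fezf2, the zinc-finger factor of corticospinal fate, stood at 388 CPM [368–408] against 186, 0.903, 0.0653 (1 UMI) and 3.85. All 3 were thus called higher than in each of the 4 groups, by 3.99-fold [3.82–4.16], 5.02-fold [4.69–5.37] and 2.09-fold [1.97–2.22] over the other CTX cells, and by 37.9-fold [34.0–42.3], 19.8-fold [17.5–22.4] and 101-fold [78.3–132] over CGE. The high-Dcx groups include cells that pass the members' own gate, 58 in CGE, 20 in LGE and none in MGE, and without them (a choice made after seeing the data) Neurod2, Tbr1 and Fezf2 were 101-fold [84.9–121], 50.2-fold [41.7–60.9] and 181-fold [129–263] higher than in CGE. Those 58 cells held 234 of the 368 Neurod2 UMIs and 197 of the 319 Tbr1 UMIs of the CGE group, and the 20 LGE cells held 161 of its 206 Neurod2 UMIs. Fezf2 lay close to the 2-fold line within the cortex, and its log2 ratio was 0.79 with a Dcx limit of 2.0 and 0.90 with every cell thinned to 3000 UMIs, both under that line. Slc17a6 went against the marker list within the cortex, at 35.2 CPM [29.5–41.7] in the members and 45.6 [43.0–48.2] in the other CTX cells, a ratio of 0.772 [0.641–0.923] that was called neither way. It was 13.6-fold [9.51–19.9] higher than in LGE, at least 180-fold higher than in MGE, where no UMI was found and 3 UMIs were taken as the limit, and 2.33-fold [1.87–2.89] higher than in CGE. The call against CGE was lost with Eomes at 0 UMIs (log2 ratio 0.81) and with no upper limit on genes (0.63). The 58 gated cells held 116 of the 247 Slc17a6 UMIs of the CGE group, and without them the ratio was 4.26 [3.32–5.46]. Of the listed genes called higher, the ratio moved by over 1.5 times on leaving out the gated cells for 17 of 91 against LGE and 17 of 72 against CGE, Bhlhe22, Slc17a6 and Lhx9 among them in both, Emx1 (100.0-fold [65.9–159]) and Cntn2 (32.9-fold [28.4–38.3]) against CGE, and Slc17a7 (745-fold [205–6171]) and Rspo3 (165-fold [91.6–334]) against LGE. The name therefore rests on Neurod2 and Tbr1, and on Fezf2 mainly against the eminences. Slc17a6 set the members apart from LGE and MGE cells, while its call against CGE depended on the settings. The 58 gated CGE cells held more of it than the members, at 238 CPM.

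**Figure D1:**
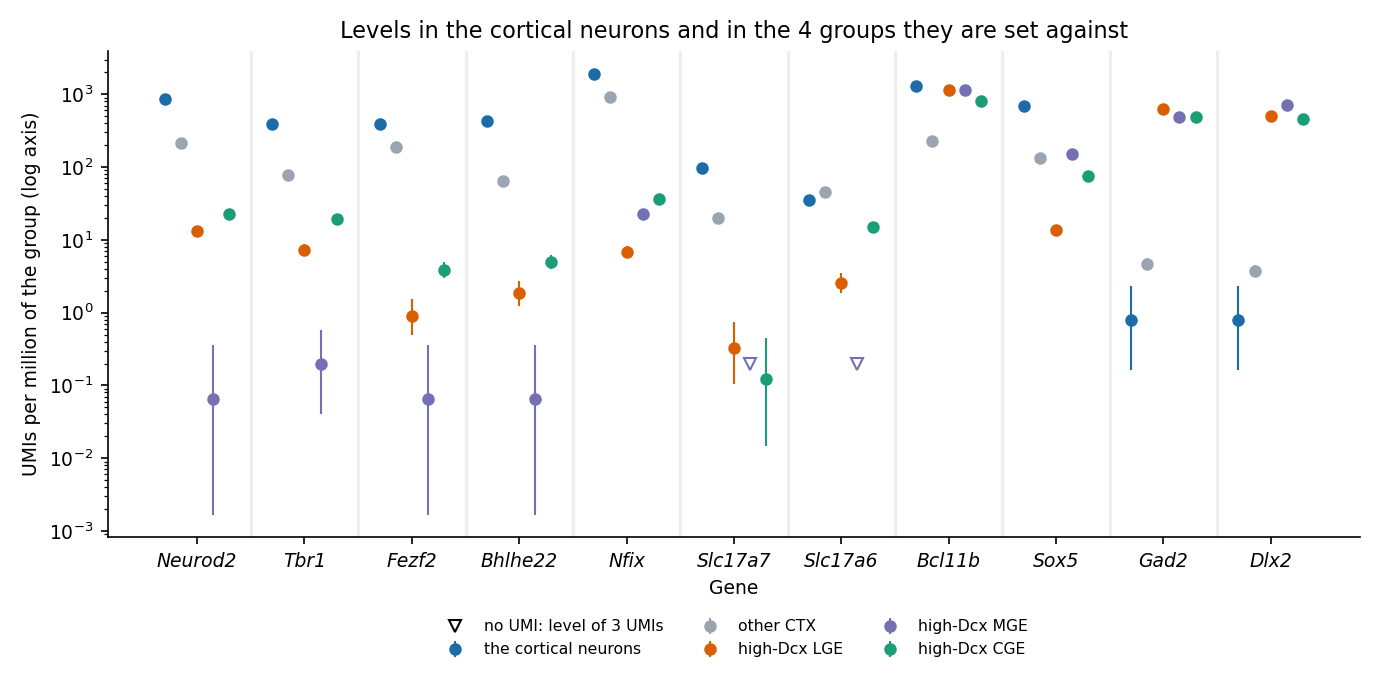
Level of 11 genes in CPM (log axis) in the members, the other CTX cells and the high-Dcx cells of LGE, MGE and CGE, each group from 1 library, with points for the level, bars for the exact Poisson 95% interval and open triangles for the level of 3 UMIs where no UMI was found. Neurod2, Tbr1, Fezf2 and Bhlhe22 are higher in the members than in each other group, Slc17a6 is not higher than in the other CTX cells, Bcl11b is alike in the members (1300 CPM) and LGE (1147), and Gad2 and Dlx2 are under 1 CPM in the members.

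The limits of the gate were described by the cells at its edges. The 7 members with the minimum of 2 Neurod6 UMIs had 965 CPM of Neurod2 and 284 of Tbr1, the 9 high-Dcx cells with 1 Neurod6 UMI had 157 and 97.9, and the 63 with none had 11.1 and 80.4. Across the Dcx limit the profiles were alike, with 811 CPM of Neurod2 and 1243 of Bcl11b in 112 members at 1.5 to 1.7 and 827 and 1353 in 81 cells at 1.3 to 1.5. Across the Eomes limit, 52 members with 1 Eomes UMI had 79.2 CPM of Neurog2, and 47 cells with 2 UMIs had 242. The Dcx limit therefore passed through cells of similar level, while the lowest Neurod6 counts separated cells of different Neurod2 level.

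Among transcription factors of the glutamatergic lineage, 11 of 11 listed genes outside the gate passed the filter, and 8 were higher and none lower than in the other CTX cells, with a median log2 ratio of 1.66. Bhlhe22, which directs axon and area identity in cortical neurons, stood at 427 CPM in the members, 63.4 in the other CTX cells, 1.87 in LGE, 0.0653 (1 UMI) in MGE and 5.01 in CGE. Zbtb18, a repressor of progenitor genes, stood at 528 CPM against 167, 40.3, 30.6 and 38.0. Mef2c, a factor of neuronal maturation, stood at 208 CPM against 31.9, 57.7, 42.8 and 111, and the last ratio, 1.88 [1.73–2.04], was under 2-fold. Emx1, the homeobox gene of the dorsal telencephalon, was 145 CPM in the members and 196 in the other CTX cells, called neither way, but 24.7-fold [19.8–31.0] higher than in CGE.

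The nuclear factor I genes Nfia and Nfib, both listed, were called higher than in each of the 4 groups. Nfix was called so as well, but it was not listed. It was named for its ratios over all 3 high-Dcx groups, so those ratios are no separate result. Nfib stood at 4206 CPM in the members, 1754 in the other CTX cells, and 112, 426 and 506 in LGE, MGE and CGE high-Dcx cells. Nfia stood at 1081 CPM against 489, 49.6, 97.5 and 132, and Nfix at 1928 CPM against 917, 6.84, 22.7 and 36.1. Nfix was thus 2.10-fold [2.05–2.16] higher than in the rest of the cortex and 53.4-fold [49.1–58.2] higher than in CGE. These factors also act in radial glia, and the high-Nestin progenitors of the same library held 377 CPM of Nfia, 1240 of Nfib and 751 of Nfix.

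Genes of deep-layer projection identity were the next group. Of 12 corticothalamic and layer 6 genes, 10 passed the filter against the other CTX cells, and 7 were higher (Tbr1, Sox5, Zfpm2, Nfia, Nfib, Hs3st4 and Crym) and none lower, with a median log2 ratio of 1.79. The same 7 genes were higher than in LGE and CGE, with medians of 4.42 against LGE and 3.03 against CGE, over 11 tested genes in either case. Foxp2 and Syt6 were lower than in LGE, and Syt6 was lower than in CGE. With Foxp2 also higher than in MGE the count there was 8 of 10 (median 2.99), with none lower. Sox5, which controls the order of deep-layer fates, stood at 692 CPM in the members, 134 in the other CTX cells, 13.6 in LGE, 152 in MGE and 76.4 in CGE. Zfpm2 (Fog2), a cofactor of layer 6 neurons, stood at 57.2 CPM against 7.98, 0.968, 0.718 and 1.77. Crym, a thyroid hormone-binding protein of deep-layer cells, stood at 32.3 CPM against 2.11 in the other CTX cells and had no UMI in any eminence group, so that it was at least 165-fold higher there. Foxp2 did not follow the list, at 46.2 CPM in the members against 36.6 in the other CTX cells and 243 in LGE.

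Among 10 subcerebral and layer 5 genes, 8 passed the filter within the cortex, with 6 higher (Fezf2, Bcl11b, Ldb2, Pou3f1, Bhlhe22 and Crim1) and 2 lower (Igfbp4 and Diap3). Bcl11b, a zinc-finger factor of corticospinal neurons that striatal neurons also use, stood at 1300 CPM [1264–1336] in the members, 227 in the other CTX cells, and 1147, 1141 and 798 in the LGE, MGE and CGE groups. It was 5.73-fold [5.52–5.95] higher than in the rest of the cortex and under 2-fold from each eminence group. Pou3f1, a POU factor, was 2.02-fold [1.77–2.29] higher than in the other CTX cells and 8.69-fold [7.76–9.75] lower than in LGE.

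The callosal and upper layer list split. Of 8 tested genes 2 were higher than in the other CTX cells and 3 lower, with a median log2 ratio of -0.55. Cux1 was lower, at 58.5 CPM against 183, 216, 276 and 222, and Pou3f3 was lower, at 31.2 CPM against 183, 164, 251 and 177. Cux1 and Pou3f3 are also used by progenitors and GABAergic neurons.

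Of 12 subplate genes only 6 passed the filter within the cortex and 3 had no UMI in the members, with 4 higher (Nxph4, St18, Pcp4 and Zfpm2) and 2 lower. Nxph4, a neurexophilin of subplate neurons, stood at 110 CPM in the members, 40.6 in the other CTX cells, 1.68 in LGE, 0.718 in MGE and 3.36 in CGE. Nr4a2 (Nurr1), a defining subplate factor, was lower, at 5.78 CPM [3.62–8.74] against 47.1 [44.6–49.8], and Lpar1 was lower, at 2.36 CPM against 85.8. Both were high in the high-Nestin progenitors of the same library, with Nr4a2 at 70.1 CPM [64.1–76.5] and Lpar1 at 113 [106–121]. At their own depth 43.2% of these progenitors held a UMI of Nr4a2, beside 4.56% of members. The share was 1.77%, 1.23% and 1.42% in LGE, MGE and CGE high-Dcx cells. The part of progenitors in the lower calls of Nr4a2 and Lpar1 was not tested. The median of the list against the other CTX cells, 1.76, became -0.05 when genes of any mean level were included.

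Some glutamate transport and receptor genes were detected in the members. Of 17 listed genes 8 passed the filter within the cortex, and 5 were higher and none lower (median log2 ratio 1.52). Slc17a7 stood at 96.9 CPM [87.2–107] in the members, 20.1 in the other CTX cells, 0.323 in LGE and 0.122 (2 UMIs) in CGE, with no UMI in MGE, which made it 4.83-fold [4.22–5.52] higher than in the rest of the cortex and at least 494-fold higher than in MGE. The AMPA receptor subunit gene Gria2 stood at 499 CPM against 154, 180, 122 and 331, and the NMDA receptor subunit gene Grin2b at 47.8 CPM against 4.01, 21.4, 14.2 and 61.1. Among 13 GABA and glycine receptor genes 5 passed the filter, and 4 of them, Gabra2 and Glra2 included, were higher than in the other CTX cells. Glra2, a glycine receptor subunit of young neurons, stood at 42.0 CPM against 3.86, 5.55, 3.59 and 15.3, higher than in all 4 groups.

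General neuronal genes were next. Of 18 cytoskeleton genes 17 were higher than in the other CTX cells (median log2 ratio 2.00), while 1 was higher and 2 lower than in LGE, 4 higher than in MGE and 1 lower than in CGE. Stmn2, a regulator of growth-cone microtubules, stood at 1572 CPM in the members, 174 in the other CTX cells, 1405 in LGE, 695 in MGE and 944 in CGE. Mapt, the microtubule-associated protein tau, stood at 476 CPM against 64.6, 291, 255 and 714. Of 18 synaptic vesicle and release genes, all 17 that passed the filter within the cortex were higher (median 2.26), against 8, 9 and 2 of 18 higher and 1, 2 and 2 lower than in LGE, MGE and CGE. Nrxn3, a presynaptic adhesion gene, was 648-fold [298–1767] lower than in CGE, with 6 UMIs in the members.

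Axon guidance genes did separate them. Of 22 listed genes 21 passed the filter within the cortex, and 13 were higher and 1 (Slit2) lower, with a median log2 ratio of 1.76. Against LGE, MGE and CGE, 14, 13 and 12 of 20 tested genes were higher and none, 2 and 2 lower, with a median of 1.54 against MGE and 1.32 against CGE. Cntn2 (TAG-1), an adhesion molecule of corticofugal axons, stood at 421 CPM in the members, 45.3 in the other CTX cells, 23.6 in LGE, 9.21 in MGE and 20.3 in CGE. Dcc, the netrin receptor, stood at 52.8 CPM against 13.7, 10.5, 18.5 and 10.0. Epha3, an ephrin receptor, stood at 334 CPM against 97.6, 120, 76.0 and 140. Robo1 and Robo2, the Slit receptors, were instead within 2-fold of each eminence group, at 53.3 CPM of Robo1 against 63.2 to 76.6 and 131 CPM of Robo2 against 110 to 187.

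For radial migration, 7 of 16 listed genes were higher than in the other CTX cells and none lower (median log2 ratio 0.64), and 5 or 6 were higher than in each eminence group. Dab1, the adaptor of the reelin signal, stood at 192 CPM in the members, 64.9 in the other CTX cells, 18.2 in LGE, 3.79 in MGE and 22.9 in CGE. Rnd2, a small GTPase of migrating neurons, stood at 1156 CPM against 340, 82.6, 174 and 98.7. Its relative Rnd3 was lower than in each eminence group, at 87.2 CPM against 251 to 299.

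**Figure D2:**
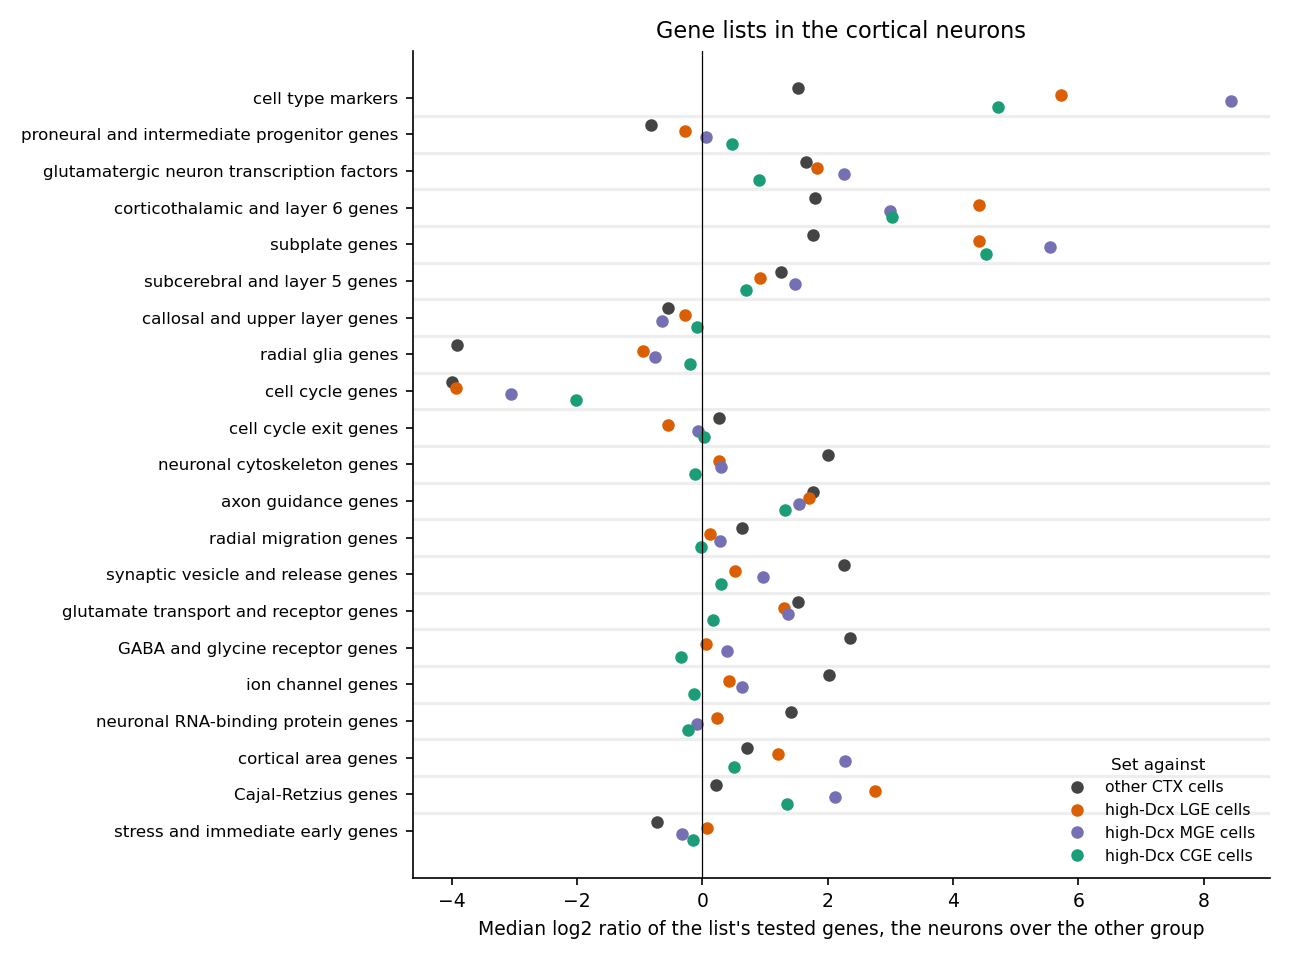
Median log2 ratio of CPM (pseudocount of 1 CPM) of each gene list in the members over the other CTX cells and over the high-Dcx cells of LGE, MGE and CGE, for lists with at least 3 tested genes in all 4 comparisons. The cell cycle list lies below 0 in all 4 (at -2.02 or less), the cytoskeleton list is high within the cortex (2.00) and near 0 against the eminences (-0.11 to 0.29), and the axon guidance list is above 1 in all 4.

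Progenitor and cell cycle genes were compared in the same way. Of 15 radial glia genes 14 were lower than in the other CTX cells (median log2 ratio -3.92), with Sox2 at 15.0 CPM in the members and 373 in the other CTX cells, Pax6 at 13.1 and 213, and Hes1 at 2.89 and 88.4. Against the eminences the radial glia list was mixed, with 2 higher and 5 lower of 10 tested genes for LGE, 2 and 4 of 8 for MGE and 2 and 4 of 10 for CGE. Of the proneural and intermediate progenitor genes 1 was higher and 7 lower of 14 within the cortex, while 6 were higher and 2 lower of 13 against LGE and against MGE, and 5 higher and 1 lower of 13 against CGE. All 14 cell cycle genes were lower than in the other CTX cells and than in LGE, 12 were lower than in MGE and 11 lower than in CGE. Mki67, a protein of dividing cells, stood at 11.8 CPM [8.62–15.8] in the members against 283, 232, 156 and 64.8. The eminence groups were gated on Dcx alone and the members also on Neurod6 and low Eomes, so these groups were not chosen alike.

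By size of the ratio against the other CTX cells, the 10 highest genes at 50 or more CPM were Kcna1, Lrfn5, Arpp21, Cdh13, Rbfox1, Lingo1, Elmod1, Islr2, Ppfia2 and Opcml, at 10.5- to 15.1-fold. Kcna1, a voltage-gated potassium channel subunit, stood at 85.3 CPM in the members against 5.64, 0.968, 0.0653 (1 UMI) and 0.550. Lrfn5, a synaptic adhesion molecule, stood at 167 CPM against 12.0, 3.36, 3.20 and 13.7, and Cdh13 (T-cadherin) at 227 CPM against 18.8, 6.65, 2.09 and 22.9. Rbfox1, a splicing factor of neurons, was under 2-fold from LGE and CGE, at 81.9 CPM against 70.4 and 59.1. The 10 lowest included C1qb, Hmmr, Prc1, Gas1, Hmga2, Sox21, Ccnb1 and Top2a. Hmmr, Prc1, Ccnb1 and Top2a act in mitosis or chromosome segregation, Gas1, Hmga2 and Sox21 are progenitor genes, and C1qb is a complement gene of microglia with no UMI in the members.

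The 10 genes highest against all 3 high-Dcx groups, by the smallest of the 3 ratios, were Fezf2, Slc17a7, Bhlhe22, Cabp1, Nfix, Kcna1, Necab3, Slc30a10, Neurod2 and 9130024F11Rik. Cabp1, a neuronal calcium-binding protein, stood at 341 CPM in the members, 57.8 in the other CTX cells, 4.52 in LGE, 5.42 in MGE and 5.50 in CGE. Slc30a10, a manganese exporter, was as high in the rest of the cortex (62.2 CPM) as in the members (71.4) and at most 0.917 CPM in the eminences. Among the genes higher than in all 3 groups, 30.9% of 392 RefSeq windows of 272 genes held 1 of the 3 E-box forms, beside 26.7% of 277 windows of 214 genes lower than in all 3 and 33.4% of all windows. The lowest 10 included Dlx1, Sp9, Dlx6os1, Dlx5, RP23-145L9.6, Nrxn3, Gad2, Dlx2 and Gm14204, among them factors and an enzyme of GABAergic neurons. Dlx1, Sp9 and Dlx5 had 1 UMI each in the members against 371 to 811 CPM in the eminence groups, and Dlx6os1 overlaps Dlx6, so their counts are uncertain.

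**Figure D3:**
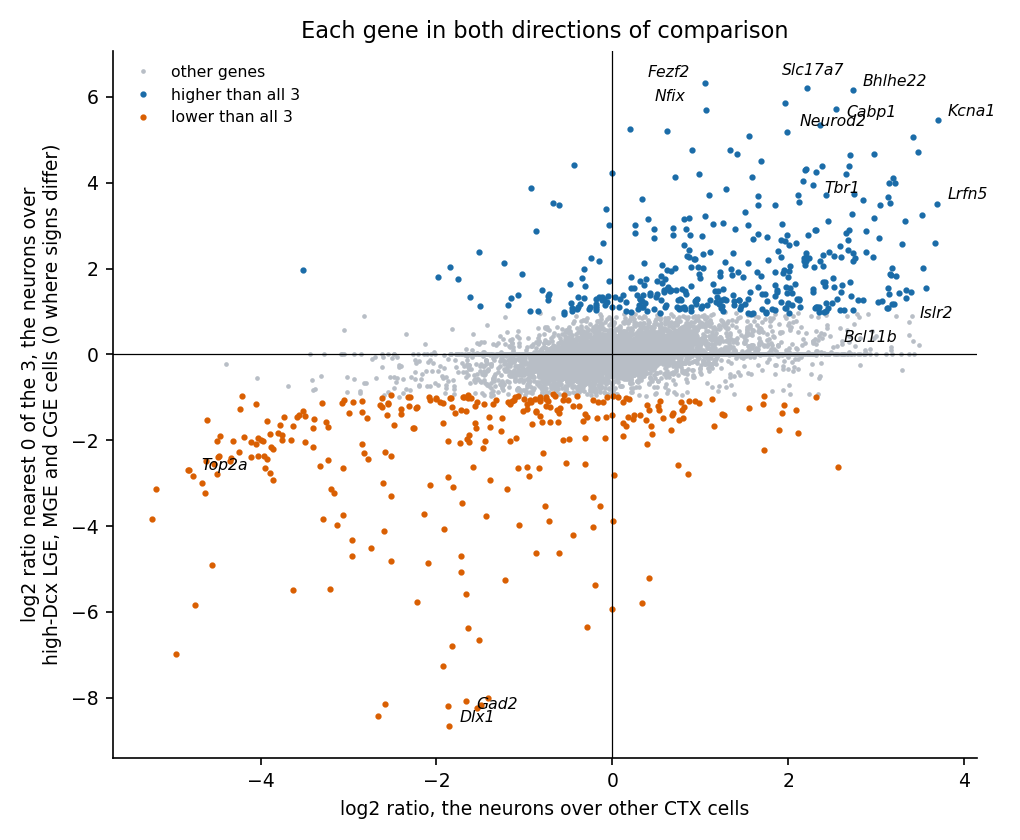
Each point is 1 gene tested in all comparisons, placed by its log2 ratio in the members over the other CTX cells (x axis) and by the log2 ratio nearest 0 of the 3 over high-Dcx LGE, MGE and CGE cells (y axis, 0 where their signs differ), with 377 genes higher than all 3 groups in blue and 298 lower in orange. Fezf2 and Nfix lie high on the y axis and only about 1 log2 unit to the right, and the Dlx genes lie at the bottom.

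Markers of other cells followed, by list. Of 17 GABAergic lineage genes in the files 7 had no UMI in the members, and their summed level was 35.7 CPM against 252 in the other CTX cells and 4751, 6681 and 4193 in the LGE, MGE and CGE groups. Gad2, the GABA-synthesising enzyme, had 3 UMIs in the members (0.788 CPM) against 481 to 637 CPM in the eminences. Summed levels of endothelial, pericyte and microglial genes were 1.05, 3.15 and 1.31 CPM in the members against 9.94, 99.4 and 228 in the other CTX cells. Red blood cell genes, present in every group, summed to 85.3 CPM against 102 in the other CTX cells and 22.6 to 82.8 in the eminences, and stress genes to 133 CPM against 449 and 105 to 137. The part of these markers in the comparisons was not tested. Of 11 Cajal-Retzius genes 5 had no UMI, among them Trp73 and Lhx1. Reln, the signal these cells secrete, was at 54.6 CPM [47.4–62.5] in the members and 47.0 [44.5–49.7] in the other CTX cells. The median log2 ratio of the 4 tested Cajal-Retzius genes was 2.75, 2.11 and 1.35 against LGE, MGE and CGE, and it became -1.14, -0.47 and -0.24 without the 79 members that held UMIs of at least 2 of 50 genes of other lineages, a set that includes Cajal-Retzius genes. Of 11 thalamic and hem genes 7 had no UMI, while Rspo3, a secreted Wnt enhancer, stood at 118 CPM against 12.6, 1.16, 0.0653 (1 UMI) and 8.38, and Lhx9 at 80.9 CPM against 41.9, 2.71, 0.196 (3 UMIs) and 16.5.

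To place the members on the path from progenitor to neuron, CTX cells were taken in 4 classes of like depth (median 7800 to 8804 UMIs), which are ranges of gate genes and not separate types. They were 840 high-Nestin cells, 670 Eomes cells with low Dcx, 327 Eomes cells with high Dcx, and the members. Neurog2, the proneural factor that starts the sequence, stood at 242, 1507, 473 and 47.0 CPM in this order. Neurod1, which follows it, stood at 2.63, 145, 397 and 97.9, and Neurod2 at 14.1, 363, 623 and 852. Each factor of the sequence thus had its highest level 1 class later than the one before. Tbr1 went from 6.79 to 78.1, 233 and 386 CPM, Bcl11b from 37.3 to 180, 581 and 1300, and Sox5 from 54.5 to 134, 262 and 692, all highest in the members. Fezf2 was already at 137 CPM in high-Nestin cells and at 245, 218 and 388 in the later classes.

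Slc17a6 was highest before the members' class. Its level was 0.970 CPM in high-Nestin cells, 86.8 in Eomes cells with low Dcx, 215 [197–233] in Eomes cells with high Dcx and 35.2 [29.5–41.7] in the members, 6.10-fold [5.05–7.42] lower in the last than in the class before. Nrp1, a semaphorin receptor, stood at 9.14, 239, 460 and 170 CPM, and Sstr2, a somatostatin receptor of migrating cells, at 3.74, 256, 388 and 94.8. Cdkn1c (p57), an inhibitor of the cell cycle, stood at 21.9, 546, 1103 and 496 CPM.

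Against the Eomes cells with high Dcx, 703 of 8355 tested genes were higher in the members (8.41%) and 531 lower (6.36%). Of 14 tested proneural and intermediate progenitor genes 13 were lower (median log2 ratio -2.02), as were 13 of 14 cell cycle genes (-3.56). Of 18 cytoskeleton genes 11 were higher (median 1.59), of 17 synaptic genes 13 (1.42), of 10 corticothalamic and layer 6 genes 5 (1.10) and of 8 callosal genes none, with 4 of the last lower (-0.77). Lrfn5 went from 1.51 to 167 CPM (110-fold [42.8–405]). Islr2, a surface protein of extending axons, went from 25.4 to 732 CPM (28.9-fold [22.7–37.4]), Mapt from 23.1 to 476 (20.6-fold [16.0–27.1]), and Cntn2 from 41.6 to 421 (10.1-fold [8.33–12.4]). Dab1 went down before it went up, at 86.3 CPM in high-Nestin cells, 28.9 and 5.30 in the Eomes classes and 192 in the members. The steps of Lrfn5, Islr2, Mapt, Cntn2 and Dab1 were larger than those of Neurod2 (1.37-fold [1.29–1.45]) and Tbr1 (1.66-fold [1.51–1.82]). Lrfn5, Islr2 and Dab1 were among the genes of largest ratio between these classes. The axon guidance list was mixed, with 6 higher and 3 lower (Nrp1, Nrp2 and Robo2) of 20 tested genes (median log2 ratio 0.43).

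**Figure D4:**
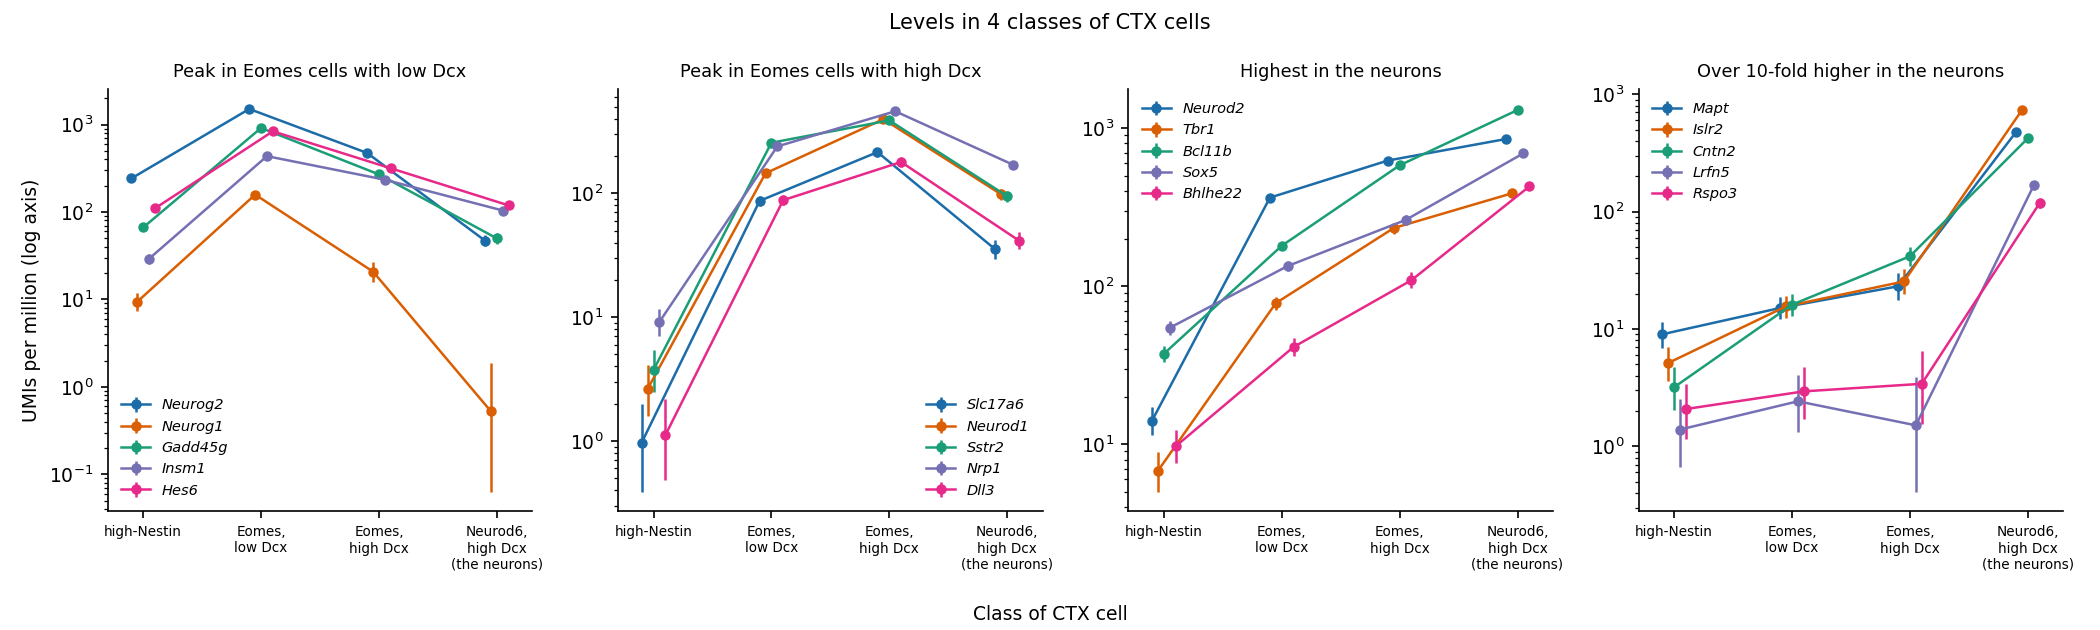
CPM (log axis) of 4 sets of genes over 4 CTX classes, from high-Nestin cells through Eomes cells with low and with high Dcx to the members, with bars for exact Poisson 95% intervals. Neurog2 is highest in Eomes cells with low Dcx (1507 CPM), Slc17a6 in Eomes cells with high Dcx (215), and Neurod2, Tbr1, Bcl11b, Mapt and Islr2 in the members.

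Shares of members with a UMI were taken at an equal depth of 3000 UMIs drawn at random from each cell, which left 411 members and left out 6 of lower depth. Red blood cell barcodes of the same library (168, with at least 10% Hbb UMIs, median 10085 UMIs, 144 of them thinned) served as the background from free RNA, beside a median of 8804 UMIs in the members. Neurod2 was found in 91.0% [87.8–93.6] of members (99.5% at own depth) and in 3.47% of red blood cell barcodes, and Bcl11b in 93.9% (98.8%) and 5.56%. Tbr1 was found in 62.5% [57.7–67.2] (88.5%) and 1.39%, Fezf2 in 58.6% [53.7–63.4] (85.1%) and 3.47%, and Sox5 in 78.6% (93.5%) and 3.47%. At own depth the red blood cell barcodes held Bcl11b in 9.52%, Tbr1 in 3.57%, Fezf2 in 10.1% and Sox5 in 8.93%. Of their 1608145 UMIs, 305040 came from genes other than globin genes and Alas2, so equal depth is not equal for other genes. Shares of members with the 4 deep-layer factors were above those of these barcodes at both depths. Slc17a7 was found in 21.7% (52.8%) and in 0 of 144 red blood cell barcodes, which allows up to 2.08%. At own depth 4 of 168 of these barcodes (2.38%) held it. Slc17a6 was found in 10.7% [7.89–14.1] of members (18.0%), in 42.2% [36.8–47.8] of Eomes cells with high Dcx and in 0.694% of red blood cell barcodes. Nr4a2, in 2.19% [1.01–4.12] of members (4.56%), had an interval that overlapped that of the background, where it was found in none of 144. Lhx6, a factor of MGE-derived interneurons, gave no UMI in any member at this depth, which allows up to 0.730% of cells with a UMI by the limit of 3 counts.

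The factors of different projection fates were found in the same cells. After thinning, 114 of 411 members (27.7% [23.5–32.3]) held UMIs of all 4 of Tbr1, Fezf2, Bcl11b and Sox5, 179 held 3 of them and none held 0, and at own depth 300 of 417 (71.9%) held all 4. Tbr1 and Fezf2, the first of which is known to repress the second in layer 6, were found together in 36.3% [31.6–41.1] of members, and the product of their single shares was 36.7%. Bcl11b and Sox5 were found together in 74.2% [69.7–78.4] (product 73.8%), and Tbr1 and Bcl11b in 59.4% [54.4–64.2] (product 58.7%). For these 3 pairs the product lay within the counting interval of the share with both, and absence of a UMI at this depth is not absence of the RNA.

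Variation among the members was described by principal components of the thinned cells over 500 variable genes. Component 1 held 10.6% of the variance and component 2 held 2.55%. Component 1 had a correlation of 0.53 with log depth and of 0.10 with the mitochondrial share over the 411 cells, which share 1 library. Members were ordered along it and split into 3 groups of 137 (low, middle and high), with median depths of 7115, 8610 and 12521 UMIs, and the part of depth in what follows was not tested. The high group had 814 of 8318 tested genes higher than the low group (9.79%) and 565 lower (6.79%), a description only, since these genes set the order.

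The leading genes of the high end were Stmn2 (301 CPM in the low and 2808 in the high group), Mapt (42.5 and 994), Ina (153 and 1093), Ndn (338 and 1557), Meg3 (81.0 and 754), Ly6h (75.9 and 935), Tubb2a (77.9 and 826) and Islr2 (183 and 1041). Most of them serve the axon and its cytoskeleton. Those of the low end were Rnd2 (1605 and 537), Tcf4 (1766 and 569), Igfbpl1 (2252 and 1010), Sox11 (7475 and 3605), Lhx2 (778 and 271), Nrp1 (509 and 8.66), Meis2 (647 and 140) and Mfap4 (474 and 26.0). Several of these act in migrating and newly born neurons. Component 2 ran from Rnd2, Fabp5, Cdkn1c, Tubb3, Ckb, Anp32a, Cfl1 and Nme1 to Nsg2, 2610203C20Rik, Meis2, Mir124-2hg, Gria2, Meg3, Cadm1 and Sox4, with Nsg2 at 220 and 490 CPM and Cdkn1c at 672 and 313 at its low and high ends, and it had a correlation of -0.45 with log depth.

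Along component 1, 11 of 13 tested proneural genes and 7 of 9 callosal genes were lower in the high group, 9 of 18 cytoskeleton genes and 9 of 17 synaptic genes were higher, and axon guidance genes split, with 5 higher and 9 lower of 20. Slc17a6 stood at 108 CPM in the low group, 21.0 in the middle and 0 in the high group, where no UMI was found. Neurod1 stood at 252, 79.1 and 18.6 CPM, and Foxp2 at 120, 43.8 and 3.09. All 3 of these genes were lowest in the high group. Fezf2 stood at 246, 240 and 583 CPM, Sox5 at 438, 563 and 940, and Mef2c at 13.2, 76.6 and 424. Tbr1 (303, 338 and 475), Bcl11b (1029, 1343 and 1435), Slc17a7 (95.2, 74.1 and 116) and Neurod2 (1064, 897 and 691) differed under 2-fold between the ends. The Slit receptors went opposite ways, with Robo2 at 321, 141 and 8.04 CPM and Robo1 at 3.04, 39.6 and 92.1. Crym had no UMI in the low group and 74.2 CPM in the high, Grin2b none and 109, Ldb2 none and 45.1, and Rspo3 2.02 (2 UMIs) and 255.

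**Figure D5:**
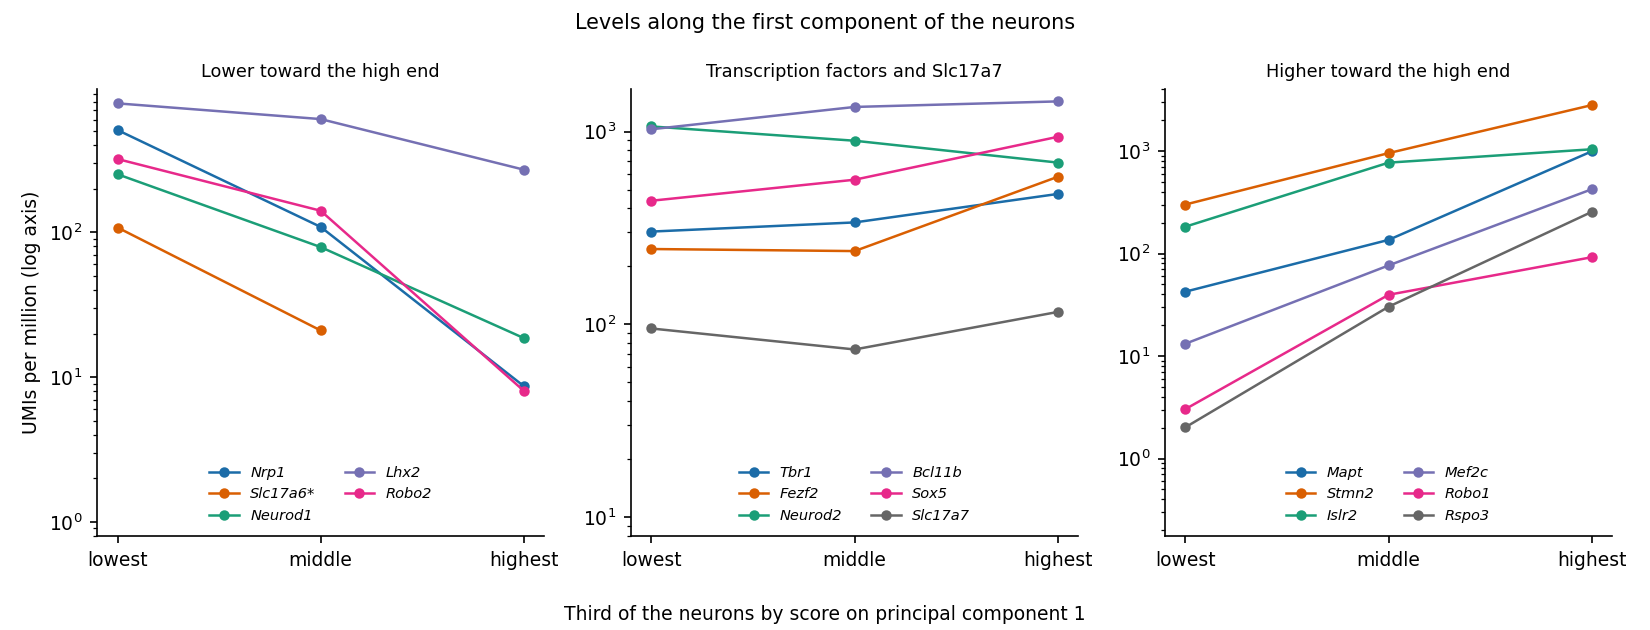
CPM of 3 sets of genes in members of the low, middle and high group of 137 cells each along component 1 on a log axis, without error bars, with an asterisk at Slc17a6, which had no UMI in the high group. Nrp1, Slc17a6, Neurod1 and Robo2 descend, Tbr1, Bcl11b and Slc17a7 stay within 2-fold, and Mapt, Stmn2, Mef2c and Robo1 ascend.

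The same gate was applied to the eminence libraries. It took 58 cells in CGE (1.79% of kept cells [1.36–2.30]), 20 in LGE (0.416% [0.254–0.641]) and none of 2272 high-Dcx cells in MGE, which allows up to 0.132% of them. In the 58 CGE cells Tbr1 stood at 404 CPM beside 386 in the CTX members (ratio of CTX to CGE 0.955 [0.823–1.11]), and Emx1 at 150 beside 145 (0.967 [0.757–1.25]). They differed in 555 of 8396 tested genes higher (6.61%) and 625 lower (7.44%) in the CTX members. Nr2f2 (COUP-TFII), a factor of the caudal forebrain, stood at 1529 CPM [1421–1643] in the CGE cells and at 0.263 (1 UMI) in the CTX members, and its relative Nr2f1 at 2491 and 324. Slc17a6 stood at 238 and 35.2 CPM, Fezf2 at 59.5 and 388, and Sox5 at 152 and 692. Slc17a7 and Kcna1 had no UMI in the CGE cells and were at least 15.7-fold and 13.9-fold higher in the CTX members, while Fign had none in the CTX members and was at least 156-fold higher in the CGE cells. The ratios of Tbr1 and Emx1 thus had intervals that held 1, unlike those of Nr2f1, Nr2f2, Fezf2 and Sox5.

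A check of the barcodes found 5 members whose barcode also occurred in another library (2 in MGE and 3 in CGE), and 5 members that a simulation of cell pairs called doublets. Leaving out either set gave 412 members. Without either set all 90 calls checked for marker and named genes were kept.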

How the data were processed

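Droplet libraries of 4 forebrain regions were used, 1 each for CTX, LGE, MGE and CGE. The deposited values are whole UMI counts per gene and barcode, which the authors made with Cell Ranger on mm10 (GRCm38); the file header names version 3.0.2 and the labels 3.0.0. Every barcode held at least 500 UMIs. The annotation release, strand handling and kit version of each library are not given in the sources used here, so overlapping genes are uncertain. The members and gene lists were chosen with earlier results of these data known.

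UMIs were summed over the cells of a group and divided by their total (CPM). Log2 ratios used a pseudocount of 1 CPM. Genes with a mean of at least 10 CPM over the pair of groups were tested, and those 2-fold apart with a 95% interval beyond 1 were called. The 10 genes of largest ratio in each direction, with at least 50 CPM in the higher group, were named, beside markers and listed genes. A level of 0 was bounded by 3 UMIs. Since counts of the same cells chose the members, all calls are descriptions. Shares of cells were computed after thinning to 3000 UMIs, with exact Clopper-Pearson intervals. Doublets were not removed in the main values. Alternatives were another Neurod6, Dcx or Eomes limit, no upper gene limit, no filter on CPM, another pseudocount, thinning, and removal of doublets, shared barcodes or members with markers of other lineages. Python 3.11.15, numpy 2.4.6, scipy 1.17.1, pandas 2.3.3, scikit-learn 1.9.0 and matplotlib 3.10.9 were used, and the calling of genes was tested on simulated data. Some listed genes are not reported here.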

Additional observations from a re-analysis of the deposited data

Results flagged for a closer look

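The filters on genes, mitochondrial and Hbb UMIs left out 156 CTX barcodes that passed the Neurod6, Dcx and Eomes limits and enter no comparison above. Of these, 68 had at most 1500 genes (median 1758 UMIs) and 81 had at least 4500 genes (median 17756 UMIs). The barcodes of low gene number held 892 CPM of Neurod2, 278 of Tbr1, 984 of Bcl11b, 269 of Mapt and 58.9 of Slc17a6. Those of high gene number held 707 CPM of Neurod2, 417 of Tbr1, 1482 of Bcl11b, 1107 of Mapt and 10.8 of Slc17a6, beside 852, 386, 1300, 476 and 35.2 in the members. None of 168 red blood cell barcodes passed the same limits.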

How the results depend on the processing

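No paired analysis was possible because each region has 1 library, and for the same reason no replicate could be left out. With a Dcx limit of 2.0 there were 155 members, and with Eomes at 0 UMIs 365. Without a filter on mean CPM, genes higher and lower numbered 1845 and 2548 against the other CTX cells, 1481 and 1541 against LGE, 1623 and 1531 against MGE, 1218 and 1593 against CGE, and 843 and 840 against all 3 high-Dcx groups, since more genes were then tested. Without that filter the median log2 ratio of the subplate list against the other CTX cells was -0.05, of the Cajal-Retzius list -0.09, -0.09 and -0.69 against LGE, MGE and CGE, and of the thalamic and hem list -0.18 against LGE and -0.17 against CGE. Without the 79 members holding UMIs of 2 or more markers of other lineages the Cajal-Retzius medians were -1.14, -0.47 and -0.24 against LGE, MGE and CGE. Other list medians moved by over 0.5 (log2) in 30 of 98 cases with a pseudocount of 10 CPM, 21 without the filter on CPM, 19 with a Dcx limit of 2.0, 13 after thinning and at most 5 under each other setting. Of 90 calls of marker and named genes, those of Fezf2 against the other CTX cells (0.79 with a Dcx limit of 2.0, 0.90 after thinning) and of Slc17a6 against CGE (0.81 with Eomes at 0, 0.63 with no upper limit on genes) were lost, and the cause was not tested. Chosen after seeing the data, the gate in CGE took 81 cells with a Neurod6 minimum of 1 UMI and 41 with a Dcx limit of 2.0. At own depth, the median share of members with a UMI over the listed genes was 54.8% in place of 31.4%, and 71.9% held all 4 projection factors, an alternative also chosen after seeing the data. Low levels rest on few UMIs, and depth limits statements on genes near 1 CPM.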
